A study of Homo sapiens with 9 samples.

Results

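The genes described here are 36 genes of DNA replication and S phase, chosen by symbol from the 21619 genes counted in each of 9 xenograft tumours. They comprise 8 genes of origin licensing, 5 of origin firing, 10 of the polymerases and the sliding clamp, 4 of nucleotide supply and 9 of S phase control and chromatin. The tumours were grown from MDA-MB-231 cells, a long-used human breast cancer line without hormone receptors, that carried a GFP-tagged ribosomal protein L10a (EGFP-L10a+, also written EGFP-10a+ in the labels). The cells were injected into the mammary fat pad of mice either alone (4 tumours, without MSC) or at a 1:1 ratio with human bone marrow mesenchymal stem cells (5 tumours, with MSC), and each tumour came from a different mouse and was taken after 3 weeks. RNA on tagged polysomes was captured with an antibody to GFP from lysed whole tumours and sequenced, so every value below is the polysome-associated RNA of the tagged line plus any RNA carried along. The question was whether replication genes on the polysomes of the cancer cells differ when MSC are injected with them.

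Gene totals were 29749909 to 50639082 counts in the tumours with MSC and 24616792 to 65275226 in those without. The members had between 302 and 15122 counts in a library, so all 36 were tested. Levels are CPM, the count of a gene relative to the library total scaled by TMM factors, given as mean ± SD over n = 4 tumours without MSC and n = 5 with MSC, and log2 changes are with MSC minus without, ± SE. Of the markers of MDA-MB-231, VIM was at least 6742 CPM and CD44 at least 285.1 CPM in all 9 tumours, while ESR1 was at most 0.208 CPM, PGR at most 0.0608 CPM and CDH1 at most 0.0202 CPM. The other 2 genes listed as low in MDA-MB-231 were detected in every tumour, EPCAM at 8.63 to 14.7 CPM and ERBB2 at 17.8 to 36.2 CPM. Of the 5 genes listed as high, CD44 and AXL rose with MSC (log2 0.61 and 0.53, edgeR adjusted p = 0.00865 and 0.0137). VIM, CAV1 and MSN were not called. The summed level of 11 fibroblast and MSC markers was 49.5 to 69.4 CPM without MSC and 69.6 to 192.9 CPM with MSC, the highest being tumour 15. COL6A3 alone gave 36.4 to 74.7 CPM of it, COL1A2 was the 1 marker of this list that rose, and DCN and LUM were at 0 in tumour 1 with MSC, while DCN was 18.9 CPM in tumour 15. Of the other markers, the 6 endothelial genes summed to 5.02 to 7.26 CPM with MSC and 8.33 to 10.8 CPM without, most of it PECAM1. The 6 leukocyte genes summed to 139.4 to 209.2 CPM with MSC and 96.0 to 139.1 CPM without, most of it CD68, with PTPRC at 0 in tumours 12 and 13. The 4 adipocyte genes summed to 0.158 to 2.48 CPM with MSC and 0.161 to 0.294 CPM without, and LEP was at 0 in every tumour.

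Before S phase, the loaders CDC6 and CDT1 place the MCM2 to MCM7 helicase on DNA as an inactive ring, which licenses the origin. In S phase kinases recruit CDC45 and the GINS complex to the ring, which starts to unwind DNA, and polymerase alpha with primase, the clamp PCNA with its loader RFC, and the polymerases delta and epsilon copy the strands. Ribonucleotide reductase and the thymidylate enzymes supply the deoxynucleotides. Many of these genes are classical targets of the E2F transcription factors, which act when cyclin-dependent kinases, that of cyclin E among them, inactivate the retinoblastoma protein.

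The E2F recognition words TTTCCCGC, TTTCGCGC, TTTGCCGC and TTTGGCGC were searched on both strands of RefSeq promoters (GRCh38.p14, 250 bases before to 50 bases after the first listed start of each gene). Promoters were matched for 33 of the 36 members, all but MCM4, MCM5 and CCNE2. At least 1 word lay in 18 of these 33 promoters (54.5%), against 5.25% of the 9383 tested genes with a promoter and 3.33% of all 27305 promoters. Of the members with a promoter, 3 of 6 that fell with MSC and 15 of 27 that did not pass held a word. The stretches below are shown because they set 3 members that fell, MCM6, PCNA and DTL, beside 3 whose log2 change was positive, MCM7, CDT1 and TYMS. Each is 60 bases of the promoter that hold a word, 5′ to 3′ on the gene's strand, with bases of an E2F word in capitals. Matches on opposite strands can overlap, as in MCM6.
MCM6: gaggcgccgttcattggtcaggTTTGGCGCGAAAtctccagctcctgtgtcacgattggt
PCNA: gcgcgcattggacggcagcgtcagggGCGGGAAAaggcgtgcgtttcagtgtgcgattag
DTL: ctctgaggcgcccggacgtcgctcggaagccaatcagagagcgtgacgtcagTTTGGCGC
MCM7: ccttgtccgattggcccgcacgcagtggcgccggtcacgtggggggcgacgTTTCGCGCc
CDT1: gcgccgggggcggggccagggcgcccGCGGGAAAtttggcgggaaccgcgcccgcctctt
TYMS: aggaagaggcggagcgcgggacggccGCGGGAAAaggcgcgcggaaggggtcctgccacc
They lie at chr2:135876496-135876555 (MCM6, minus strand), chr20:5126648-5126707 (PCNA, minus), chr1:212035688-212035747 (DTL, plus), chr7:100101398-100101457 (MCM7, minus), chr16:88803728-88803787 (CDT1, plus) and chr18:657588-657647 (TYMS, plus). A word match is a description of the letters and not a binding site.

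With MSC, 7 of the 36 members were lower, against 3.6% of all genes tested, and 0 were higher, against 4.18%. The test was edgeR's quasi-likelihood test, with p adjusted by Benjamini-Hochberg over 13458 genes and called under 0.05. They were RRM1, PCNA, MCM6, MCM4, RFC5, DTL and CHAF1B, and their falls were of 21.6 to 31.0%. At an unadjusted p under 0.05, 15 members were lower and 2 higher, against 11.8% and 12.8% of all genes. DESeq2 called 12 lower and 0 higher, against 5.87% and 6.36% of all genes. The 12 were the 7 above with POLA1, FEN1, RRM2, CLSPN and SLBP. Limma-voom called 4 lower and 1 higher, against 2.15% and 2.99%. In all, 31 members had a negative log2 change (48.9% of all genes did), with a median of -0.23 against 0.01 over all genes. Every tumour with MSC lay below every tumour without for 6 members, MCM3, MCM4, MCM6, POLA1, DTL and SLBP, against 4.87% of all genes, and above every tumour without for 0 members, against 5.13%. In polysome RNA of tumours, fewer S phase cells, less of each RNA per cell and less of it on polysomes cannot be told apart. The fibroblast and MSC, endothelial and leukocyte marker sums given above did not overlap between the groups. COL1A2 and CD68 rose and PECAM1 fell (edgeR adjusted p = 0.0104, 0.0371 and 0.00745). The endothelial and leukocyte sums were mostly PECAM1 and CD68, and no other gene of these lists was called. LYZ, CD14, CSF1R and KDR had log2 changes of -0.82, -0.45, 0.0092 and -0.37. The untested endothelial genes, such as TEK (0.271 against 0.125 CPM), had higher means with MSC. Whether these cell types changed, and the part of these markers in the members' changes, was not tested.

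The number of calls depended on single tumours. The count of lower members was 0 without tumour 1, tumour 10 or tumour 12, 1 without tumour 9, 2 without tumour 11, 3 without tumour 6 or tumour 15, 6 without tumour 7 and 11 without tumour 13. The share of all genes called lower moved in the same fits, from 3.6% to 1.44% without tumour 1 or tumour 10, 0.69% without tumour 12, 1.0% without tumour 9 and 6.4% without tumour 13. That share was 2.19% without tumour 11, 2.48% without tumour 6 or tumour 7 and 2.26% without tumour 15. Without tumours 15 and 12 together the count of members was 0, against 0.747% of all genes, with a median change of -0.18 and 28 members negative. Scaling by library size only left MCM6, PCNA and RRM1, against 3.06% of all genes.

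**Figure D1:**
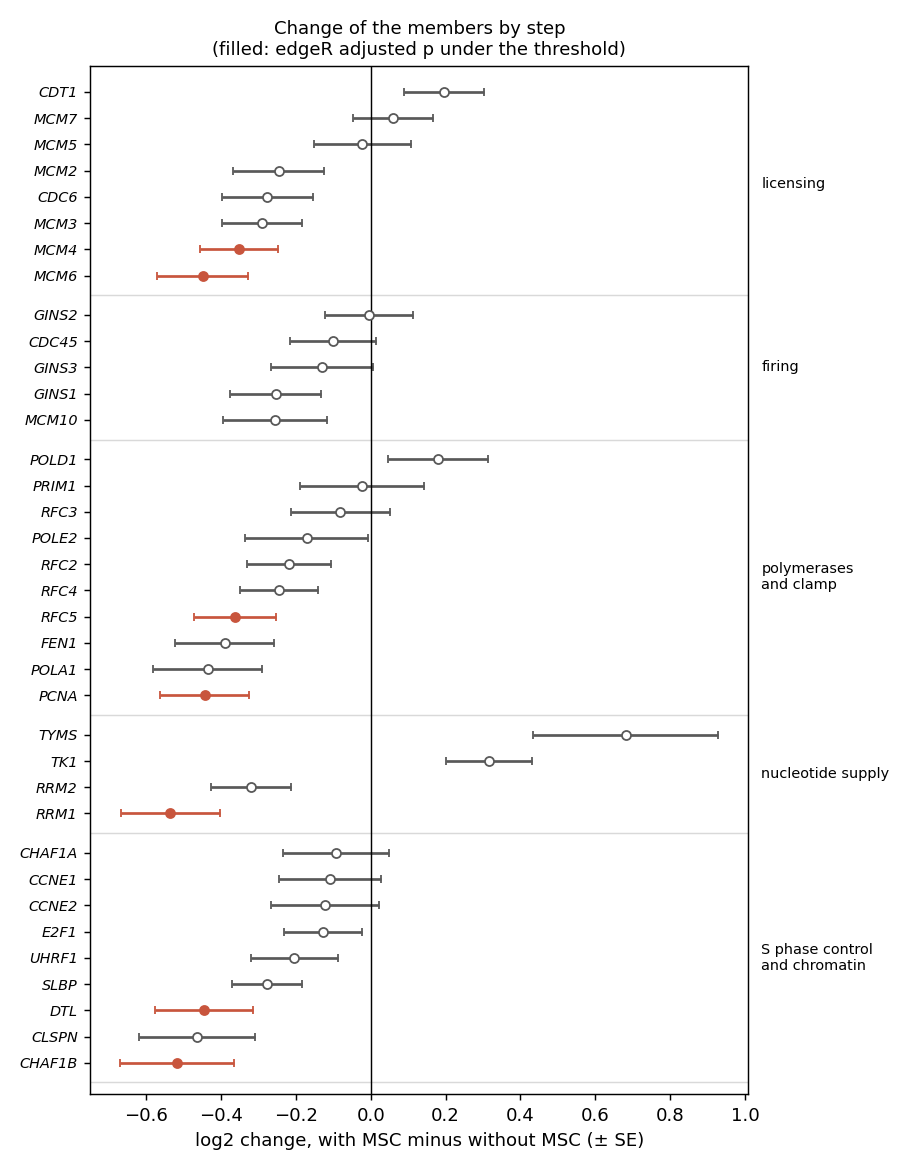
The horizontal axis gives the log2 change with MSC minus without (edgeR, bars ± SE) of all 36 members, grouped by step. Filled points mark the 7 members that passed, all on the negative side, and the points on the positive side are CDT1, MCM7, POLD1, TYMS and TK1.

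Among the licensing genes 2 of 8 fell, against 3.6% of all genes. They were MCM6 and MCM4, both subunits of the helicase ring. Whether the steps differed from one another was not tested. MCM6 had 49.9, 51.5, 64.9 and 42.2 CPM in tumours 9, 11, 12 and 13 without MSC and 35.4, 41.6, 38.7, 34.8 and 40.2 CPM in tumours 1, 6, 7, 10 and 15 with MSC. All 5 tumours with MSC were below the lowest without, and tumour 12 was the highest. The means were 52.1 ± 9.41 and 38.2 ± 2.96 CPM (log2 -0.45 ± 0.12, edgeR adjusted p = 0.0294), and the change was -0.33 without tumour 12 (adjusted p = 0.141). The call held only without tumour 6, 13 or 15 among the 9 such fits.

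MCM4 had 113.6, 118.5, 122.3 and 111.7 CPM without MSC, in the same order of tumours, and 79.8, 96.3, 108.4, 81.3 and 90.9 CPM with MSC. The groups did not overlap, although tumour 7 with MSC came within a few CPM of tumour 13. The change was -0.35 ± 0.11 (edgeR adjusted p = 0.0453), and of the 9 fits that left out 1 tumour only those without tumour 7 or tumour 13 called it.

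The other ring subunits ranged from MCM3 (170.7 ± 19.7 without, 139.5 ± 12.8 CPM with MSC, log2 -0.29 ± 0.11, edgeR adjusted p = 0.0944) through MCM2 (-0.25 ± 0.12) and MCM5 (-0.02 ± 0.13) to MCM7 (0.06 ± 0.11). MCM3 did not overlap between the groups, with at most 150.2 CPM with MSC and at least 152.2 CPM without, but did not pass. The direction of MCM5 and MCM7 was not fixed: MCM5 was 0.05 without tumour 12, and MCM7 -0.02 without tumour 9 and -0.11 after the GC correction described below. Per kilobase of the longest coding transcript, the 6 subunits of a ring that holds 1 of each spanned a wide range. Without MSC the level was 53.2 ± 6.14 CPM per kb for MCM3, 46.3 ± 6.0 for MCM7, 27.9 ± 1.14 for MCM4, 20.3 ± 3.91 for MCM2, 13.9 ± 2.52 for MCM6 and 13.7 ± 2.21 for MCM5. With MSC it was 48.2 ± 3.75 CPM per kb for MCM7, 43.5 ± 3.99 for MCM3, 21.8 ± 2.80 for MCM4, 17.1 ± 1.57 for MCM2, 13.4 ± 1.93 for MCM5 and 10.2 ± 0.793 for MCM6. MCM3 and MCM7 at the top, and MCM5 and MCM6 at the bottom, changed places between the groups. The ranges of mean ± SD overlapped for MCM3 and MCM7 in both groups, and for MCM5 and MCM6 without MSC only.

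The 2 loaders did not pass and had log2 changes of opposite sign, although after the GC correction both were negative (CDC6 -0.30, CDT1 -0.093). CDC6, the ATPase that brings the ring to origins, had 59.1, 50.8, 71.3 and 47.3 CPM without MSC and 49.7, 45.7, 52.7, 42.6 and 44.9 CPM with MSC (log2 -0.28 ± 0.12, edgeR adjusted p = 0.163), and its change was -0.16 without tumour 12. CDT1, its partner, had 42.7, 47.0, 42.1 and 47.0 CPM without MSC and 50.9, 54.1, 58.3, 45.5 and 47.1 CPM with MSC (log2 0.20 ± 0.11, edgeR adjusted p = 0.270). The groups overlapped for both genes. Within a library the log2 ratio of CDC6 to CDT1 does not depend on library scaling, but it was not corrected for GC content. It was 0.01 to 0.76 without MSC and -0.24 to -0.03 with MSC, so that every tumour with MSC was below every tumour without. The means differed by -0.46 (two-sided exact permutation p = 0.0159, the smallest the design allows), but not after adjustment over the 9 ratios tested (adjusted p = 0.143). The ratio of CDT1 to geminin (GMNN), which blocks relicensing by binding CDT1, differed by 0.32 (exact permutation p = 0.0794, adjusted p = 0.214).

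None of the 5 firing genes passed in edgeR, DESeq2 or limma-voom, which called 3.6%, 5.87% and 2.15% of all genes lower. Their median log2 change in edgeR was -0.13. In edgeR 0 of them had an unadjusted p under 0.05, while GINS1 had an unadjusted p of 0.0438 in DESeq2 and 0.0225 in limma-voom. MCM10, which helps activate the helicase, had 23.2, 22.7, 31.7 and 21.0 CPM without MSC and 18.6, 21.2, 22, 17.7 and 23.8 CPM with MSC (log2 -0.25 ± 0.14, edgeR adjusted p = 0.266), and its change was -0.12 without tumour 12. GINS1 had 38.1, 35.9, 25.3 and 32.5 CPM without MSC and 27.6, 28.2, 28.1, 28 and 26.4 CPM with MSC (-0.25 ± 0.12, edgeR adjusted p = 0.204). Tumour 12, the highest tumour for all 7 members that fell, was the lowest of all 9 for GINS1. The GINS subunits GINS2 (-0.0048 ± 0.12, with 40.7 ± 6.08 and 40.6 ± 2.41 CPM) and GINS3 (-0.13 ± 0.14) and the helicase cofactor CDC45 (-0.10 ± 0.12) lay near 0. The sign of GINS2 was positive in several fits, such as 0.05 without tumour 13. The log2 ratio of GINS1 to GINS2 was -0.31 ± 0.41 without MSC and -0.55 ± 0.09 with MSC, a difference of -0.24 (exact permutation p = 0.302, adjusted p = 0.388), or -0.081 without tumour 11 and -0.40 without tumour 12.

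Of the polymerase and clamp genes 2 of 10 fell, PCNA and RFC5, against 3.6% of all genes. PCNA, the ring-shaped clamp that tethers polymerases to DNA, had 229.9, 234.4, 261.7 and 179.1 CPM without MSC and 163.7, 190.1, 182.5, 139.8 and 156.0 CPM with MSC. Tumour 13 without MSC lay among the tumours with MSC, and the other 3 without MSC lay above all of them. The change was -0.44 ± 0.12 (edgeR adjusted p = 0.0284), a call that held only without tumour 6, 7 or 13 (highest adjusted p = 0.132). Per kilobase PCNA was the most abundant member in both groups (166.5 ± 25.3 without and 122.5 ± 14.9 CPM per kb with MSC).

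RFC5, a subunit of the clamp loader, had 77.2, 61.8, 83.4 and 69.7 CPM without MSC and 56.6, 55.9, 64.7, 54.0 and 52.7 CPM with MSC (-0.36 ± 0.11, edgeR adjusted p = 0.0459). Only tumour 11 without MSC and tumour 7 with MSC crossed, and the call held only without tumour 7, 11 or 13 (highest adjusted p = 0.172). The other loader subunits had smaller changes that did not pass, RFC4 of -0.24 ± 0.10, RFC2 of -0.22 ± 0.11 and RFC3 of -0.08 ± 0.13, the last with 0.0033 without tumour 9 and 0.03 after the GC correction.

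POLA1, the catalytic subunit of polymerase alpha, was at most 13.7 CPM with MSC and at least 14.6 CPM without (16.3 ± 2.12 against 12.1 ± 1.66 CPM, -0.43 ± 0.15), yet missed the threshold (edgeR adjusted p = 0.0675). The primase subunit PRIM1, which works in the same complex, had nearly equal means (14.0 ± 2.81 and 13.8 ± 2.52 CPM, -0.02 ± 0.17), and their log2 ratio differed by -0.42 (exact permutation p = 0.0952, adjusted p = 0.214). FEN1, the nuclease that trims Okazaki fragments, was 174.7 ± 40.0 without and 133.3 ± 15.4 CPM with MSC (-0.39 ± 0.13, edgeR adjusted p = 0.0705), and the log2 ratio of PCNA to FEN1 differed by -0.07 (exact permutation p = 0.603, adjusted p = 0.679). The polymerase epsilon subunit POLE2 had -0.17 ± 0.16, and POLD1, the catalytic subunit of polymerase delta, had 0.18 ± 0.13 (edgeR adjusted p = 0.430).

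Of the 4 nucleotide supply genes only RRM1 fell (3.6% of all genes did), and the reductase and thymidylate genes had changes of opposite sign. RRM1, the large subunit of ribonucleotide reductase, was the member with the smallest p, with 161.4, 189.9, 228.1 and 139.6 CPM without MSC and 112.2, 136.5, 149.6, 109.0 and 112.7 CPM with MSC. Tumour 7 with MSC was above tumour 13 without, and the rest did not cross. RRM1 fell from 179.8 ± 38.3 to 124.0 ± 18.1 CPM (-0.53 ± 0.13, edgeR adjusted p = 0.0203). The call was lost without tumours 1, 10, 11 or 12, and the change was -0.40 without tumour 12 (adjusted p = 0.110).

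RRM2, the small subunit, was 165.2 ± 19.5 without and 132.3 ± 12.9 CPM with MSC (-0.32 ± 0.11, edgeR adjusted p = 0.0680). The ratio of RRM1 to RRM2 differed by -0.21 (exact permutation p = 0.206, adjusted p = 0.333), so a difference in response between the subunits was not shown.

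The thymidylate enzymes had higher means with MSC, and neither passed. TYMS, thymidylate synthase, had 47.4, 25.1, 24.0 and 60.3 CPM without MSC and 75.9, 50.5, 63.0, 61.7 and 64.6 CPM with MSC (0.68 ± 0.25, edgeR adjusted p = 0.112). Tumours 11 and 12 were the low ones, and they were the tumours with the most RRM1. Without tumour 13 the change of TYMS was 0.96 (adjusted p = 0.00551), and limma-voom also called it (0.70, adjusted p = 0.0437).

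The gene ENOSF1 overlaps the end of TYMS on the other strand, and whether strand was used in counting is not given in the sources used here. ENOSF1, looked at after these values were seen, was 15.3 ± 2.62 without and 15 ± 0.730 CPM with MSC (-0.03 ± 0.14). TK1, the thymidine kinase of the salvage route, had 107.1, 133.1, 113.9 and 134.9 CPM without MSC and 172.9, 167.0, 158.9, 127.4 and 134.8 CPM with MSC (0.32 ± 0.11, edgeR adjusted p = 0.0912). Tumours 1, 6 and 7 were above all others for TK1, and tumours 10 and 15 lay within the range without MSC. The ratio of TYMS to TK1 differed by 0.48 (exact permutation p = 0.222, adjusted p = 0.333).

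**Figure D2:**
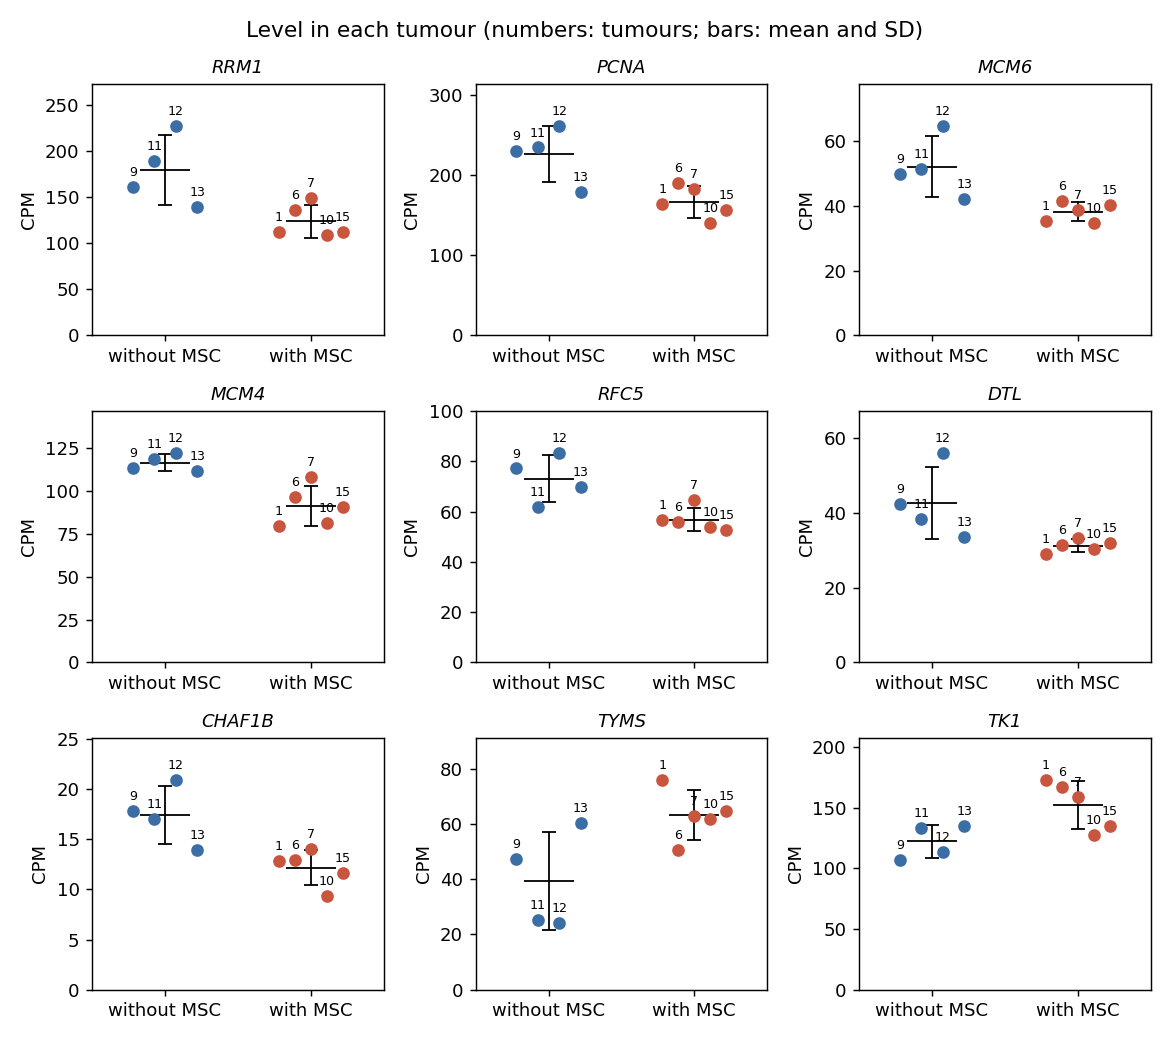
CPM in each tumour (points, numbered by tumour) for the 7 members that fell and for TYMS and TK1, with the mean and SD of each group as black bars. Tumour 12 is the highest point of all 7 that fell, and tumours 11 and 12 are the lowest for TYMS.

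Among the S phase control and chromatin genes 2 of 9 fell, DTL and CHAF1B, against 3.6% of all genes. All 9 had a negative change, against 48.9% of all genes. DTL, the substrate receptor of the ubiquitin ligase that degrades CDT1 on chromatin, had 42.3, 38.4, 56.0 and 33.5 CPM without MSC and 29.1, 31.3, 33.4, 30.2 and 32.0 CPM with MSC. The groups were separate by the small gap between tumour 13 without and tumour 7 with MSC. The change was -0.45 ± 0.13 (edgeR adjusted p = 0.0414), or -0.29 without tumour 12 (adjusted p = 0.190), and the call held only without tumour 11 or 13.

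CHAF1B, a subunit of the chromatin assembly factor that lays histones on new DNA, had 17.8, 17, 20.9 and 14.0 CPM without MSC and 12.8, 13, 14.0, 9.39 and 11.6 CPM with MSC (-0.52 ± 0.15, edgeR adjusted p = 0.0415). Tumours 13 and 7 met at 14.0 CPM, and the call held only without tumour 7 or 13 (highest adjusted p = 0.148). The large subunit of this factor, CHAF1A, was 34.5 ± 5.64 without and 32.3 ± 5.59 CPM with MSC (-0.09 ± 0.14, and 0.01 without tumour 7). The log2 ratio of CHAF1A to CHAF1B differed by 0.42 (exact permutation p = 0.0952, adjusted p = 0.214).

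CLSPN, the checkpoint mediator claspin, had the largest negative change of the genes of this step that did not pass (25.5 ± 4.85 and 18.5 ± 3.85 CPM, -0.46 ± 0.15, edgeR adjusted p = 0.0667). CLSPN passed without tumour 15 (-0.60, adjusted p = 0.0228) and without tumour 13 (-0.53, adjusted p = 0.0367). SLBP, which binds the stem-loop of histone mRNAs, was 92.8 to 106.3 CPM with MSC and 115.1 to 123.0 CPM without, without overlap (-0.28 ± 0.09, edgeR adjusted p = 0.0713). UHRF1, which guides maintenance methylation, had -0.20 ± 0.12.

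The regulators E2F1, CCNE1 and CCNE2 did not pass. E2F1 was 105.9 ± 12.4 without and 97.0 ± 7.49 CPM with MSC (-0.13 ± 0.10, edgeR adjusted p = 0.480), and after the GC correction it was -0.36 (adjusted p = 0.0454). Cyclin E1 (CCNE1) was 12.7 ± 0.892 and 11.8 ± 0.889 CPM (-0.11 ± 0.14) and cyclin E2 (CCNE2) 18.9 ± 3.92 and 17.4 ± 1.62 CPM (-0.12 ± 0.14, and 0.02 without tumour 9). The log2 ratio of CCNE1 to CCNE2 was -0.55 ± 0.38 without MSC and -0.56 ± 0.16 with MSC (exact permutation p = 0.968, adjusted p = 0.968), a difference of -0.01 whose sign changed when some tumours were left out.

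**Figure D3:**
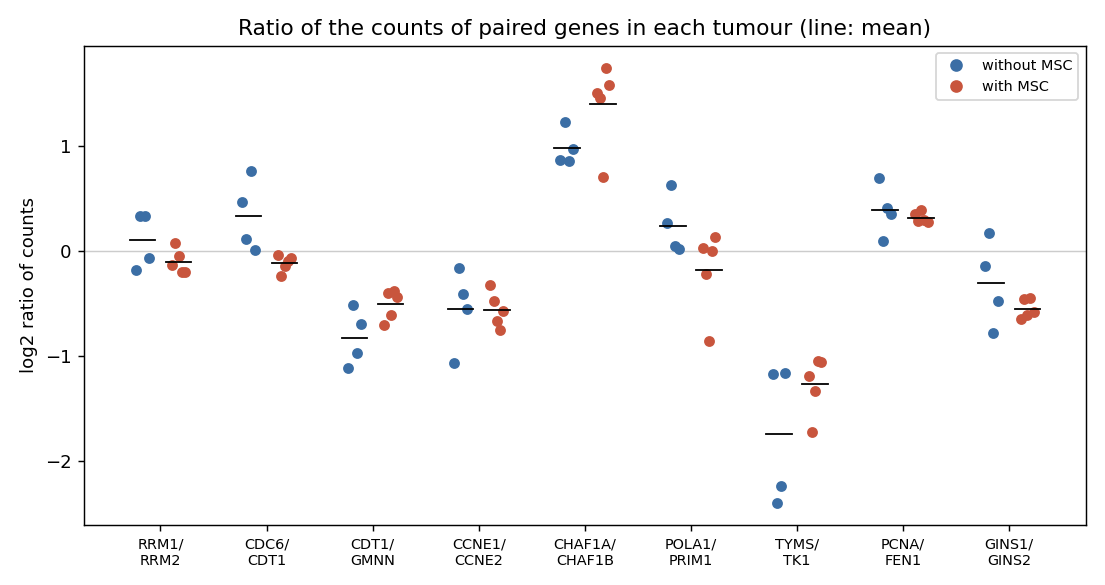
The vertical axis gives the log2 ratio of counts of 2 genes of 1 complex or step in each tumour (points, blue without MSC and red with MSC) with the group mean as a line. For CDC6/CDT1 the groups do not overlap, where tumours with MSC span -0.24 to -0.03 and tumours without span 0.01 to 0.76.

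The members also varied between tumours of the same group. Averaged over the 36 members, the deviation of log2 CPM from each gene's mean was 0.11, 0.06, 0.19 and 0.03 in tumours 9, 11, 12 and 13 without MSC and -0.10, -0.04, 0.02, -0.20 and -0.07 in tumours 1, 6, 7, 10 and 15 with MSC. Tumour 12 stood highest, with 7 members below their mean, and tumour 10 lowest, with 32 below. Tumour 7 with MSC and tumour 13 without were close to one another (0.021 and 0.025). The average of the 4 nucleotide supply genes did not follow this order, with means of -0.14 in tumour 11 and 0.18 in tumour 7. Its genes differed: TYMS was -0.97 in tumour 11 and -1.03 in tumour 12. RRM1 was 0.39 and 0.66 in those 2 tumours and -0.41 in tumour 10, and RRM2 was 0.05, 0.31 and -0.22 in the same tumours. TK1 was -0.04, -0.27 and -0.11.

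**Figure D4:**
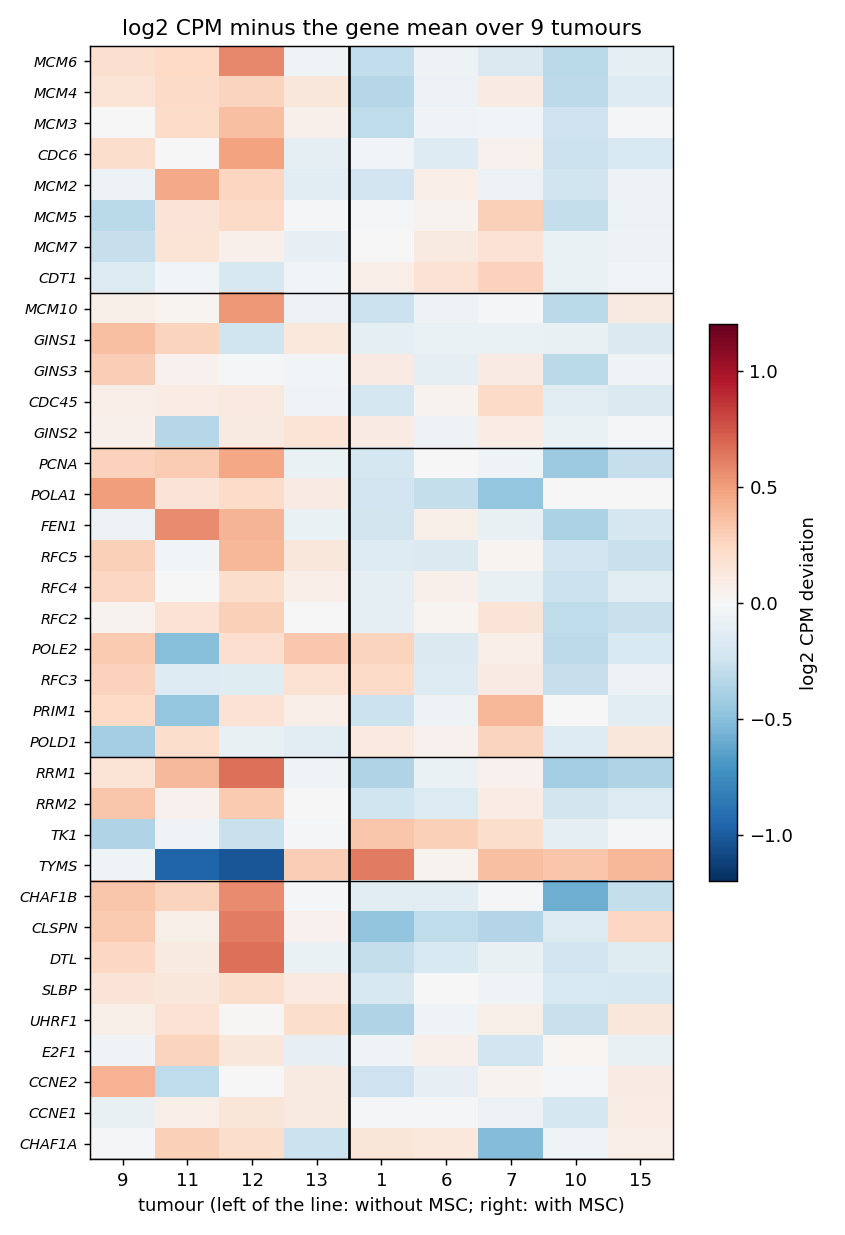
Rows are the 36 members by step and columns the 9 tumours, and the colour gives log2 CPM minus the gene's mean over the tumours (red above, blue below). Tumour 12 is red for most rows and tumour 10 blue, while 7 rows are below their mean in tumour 12, TYMS the furthest at -1.03, with TK1 at -0.27 and GINS1 at -0.23.

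Median base composition differed between members of opposite sign. The 5 members with a positive change, MCM7, CDT1, POLD1, TYMS and TK1, had transcripts of 49.8 to 65.0% GC (median 62.8%). The 31 with a negative change had 36.9 to 62.5% GC (median 45.8%), so the ranges overlapped. The median over all genes tested was 48.5%. The part of base composition in these changes was not tested further than the correction that follows. After a correction of each library for GC content and length, 6 members were lower and 0 higher. Of all 13458 genes, 3.66% were lower and 341 genes were higher in that fit. The 6 members were MCM4, CHAF1B, MCM2, POLA1, FEN1 and E2F1, of which 2 were among the 7 above. The other 5 kept a negative change but missed the threshold. RRM1 was -0.50, MCM6 -0.43, DTL -0.44, PCNA -0.35 and RFC5 -0.30 (edgeR adjusted p = 0.0519, 0.0568, 0.0638, 0.0712 and 0.0860). With it 32 members were negative: CDT1 (-0.09), POLD1 (-0.11) and MCM7 (-0.11) changed sign, RFC3 (0.03) and PRIM1 (0.12) turned positive, TK1 was 0.12 and TYMS stayed at 0.72.

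Of 55 other genes of the same pathway, 5 fell and 0 rose (edgeR, median log2 change -0.14), against 3.6% and 4.18% of all genes. DESeq2 gave 11 lower, against 5.87% of all genes, and limma-voom 2, against 2.15%, and both gave 0 higher. At an unadjusted p under 0.05, 16 of them were lower and 1 higher, against 11.8% and 12.8% of all genes. Origin firing held 3 of these 5 genes, GINS4, CDC7 and DBF4. GINS4, the fourth GINS subunit, had 70.9, 46.5, 73.3 and 59.4 CPM without MSC and 43.7, 35.4, 46.2, 36.5 and 40.2 CPM with MSC. The groups did not overlap, and the change was -0.63 ± 0.13 (edgeR adjusted p = 0.00793), a call that held in each fit without 1 tumour. CDC7, the kinase that phosphorylates the MCM ring, went from 29.9 ± 4.68 to 20.3 ± 1.82 CPM (-0.56 ± 0.13, edgeR adjusted p = 0.0136), also without overlap, with adjusted p = 0.0562 without tumour 9 and 0.0544 without tumour 12. Its activating subunit DBF4 went from 38.3 ± 6.11 to 28.9 ± 2.40 CPM (-0.41 ± 0.12, edgeR adjusted p = 0.0452), the dUTP hydrolase DUT from 149.9 ± 16.0 to 117.0 ± 13.2 CPM (-0.36 ± 0.11, edgeR adjusted p = 0.0474) and the deubiquitinase USP1 from 136.9 ± 22.7 to 106.1 ± 5.28 CPM (-0.37 ± 0.11, edgeR adjusted p = 0.0451). In 7 of the 9 fits that left out 1 tumour, and after the GC correction, DBF4, DUT and USP1 were not called.

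For comparison, 13 of 30 genes of G2 and mitosis fell in edgeR, against 3.6% of all genes, and all 30 had a negative change, with a median of -0.38. DESeq2 called 17 lower, limma-voom 10 and the edgeR fit after the GC correction 9, against 5.87%, 2.15% and 3.66% of all genes. In these fits and the main edgeR fit 0 were higher, against 4.18% of all genes in the main fit. The smallest p values were those of the kinesin KIF20A (-0.72 ± 0.12, edgeR adjusted p = 0.00329), the checkpoint protein MAD2L1 (-0.54 ± 0.11, edgeR adjusted p = 0.00865) and cyclin A2 (CCNA2, -0.56 ± 0.12, edgeR adjusted p = 0.00865). The count was 4 without tumour 9 or tumour 12, 6 without tumour 10, 8 without tumour 1, 21 without tumour 13 and 1 without tumours 15 and 12 together. Whether the mitosis genes changed more than the replication genes was not tested.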

How the data were processed

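The 9 deposited files, 1 for each tumour, hold raw counts per gene symbol, made by the authors with CASAVA 1.8.1, TopHat 1.4.0 and HTSeq on the genome build hg19, per the submitters' processing notes. For the annotation, the counting settings and any removal of mouse reads, the sources used here give nothing. The 5 lines that name no gene, 10.2 to 12.1% of all counts, were left out. The groups share no replicate numbers and no batch is named, so no block was used. Counts were fitted over the whole table with edgeR 4.0.16 in R 4.3.3 (filterByExpr, TMM, glmQLFit with robust=TRUE, Benjamini-Hochberg over 13458 genes, threshold 0.05). SE is the log2 change divided by the square root of F. Ratios of 9 gene pairs used counts plus 0.5 and the two-sided exact permutation test over tumours (126 splits, smallest p 0.0159) in scipy 1.17.1. Transcript GC content and length came from GENCODE release 29 (longest coding transcript, 95.7% of tested genes matched). The GC correction fitted splines with 4 degrees of freedom to each library and would also remove a true difference that follows GC. The fit was tested on simulated counts, in which the changes set were all larger than those of the members called lower. That test therefore does not cover changes of the size reported here.

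The fit was repeated with size factors of DESeq2, with library size only, no filter, a filter of 5 CPM in 4 libraries, DESeq2 1.42.0, limma-voom (limma 3.58.1), the GC correction, a pseudocount of 5 for ratios, each tumour left out, and tumours 15 and 12 left out together. The members, lists, pairs and alternatives were chosen with earlier results of these data known. Values are given in every tumour for each member that passed, for the member of smallest p and of largest change in each step, and for TK1, CDC6 and CDT1. Of the other pathway lists up to 12 genes that passed are named, and of the mitosis list the 3 of smallest p.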

Additional observations from a re-analysis of the deposited data

Results flagged for a closer look

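In the tumours with MSC, 1 value stood far from the other 4 for RRM2 and for the ratio of CHAF1A to CHAF1B, both in tumour 7. RRM2 was 154.8 CPM there and 122.9 to 129.5 CPM in the other 4. The log2 ratio of CHAF1A to CHAF1B was 0.71 there and 1.46 to 1.75 in the other 4. Of 90 groups of values examined, 2 met the criterion (Dixon's ratio above its 95% critical value), where chance gives about 1 in 20. Without tumour 7 RRM2 passed (log2 -0.38, edgeR adjusted p = 0.0489). It also passed without tumour 13 (log2 -0.37, edgeR adjusted p = 0.0311) and in DESeq2 with all tumours kept (adjusted p = 0.0325).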

How the results depend on the processing

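The number of lower members, 7, was 3 with library size only, 12 in DESeq2, 4 in limma-voom and 0 without tumours 15 and 12, and 0 to 11 when each tumour was left out. The number higher, 0, was 1 in limma-voom and 0 to 1 in those fits. Licensing had 1 lower with library size only and 0 without tumours 15 and 12 (0 to 2 leaving out 1 tumour). Polymerases and clamp had 1, 4 in DESeq2, 1 in limma-voom and 0 (0 to 4). Nucleotide supply had 2 in DESeq2, 0 after the GC correction and 0 without both tumours (0 to 2). S phase control and chromatin had 0 with library size only, 4 in DESeq2, 0 in limma-voom and 0 (0 to 3). The shares of all genes called lower in these fits are given above.

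The sign of some log2 changes turned, all of them without a call. MCM5 was 0.065 without tumours 15 and 12 (-0.12 to 0.046 leaving out 1 tumour). MCM7 was -0.11 after the GC correction (-0.015 to 0.13), CDT1 -0.093 and POLD1 -0.11. GINS2 was 0.00024 with the 5 CPM filter, 0.017 in limma-voom and 0.032 without both tumours (-0.10 to 0.052). RFC3 was 0.031 after the GC correction (-0.15 to 0.0033). PRIM1 was 0.0049 in limma-voom, 0.12 after the GC correction and 0.055 without both tumours (-0.15 to 0.056). CCNE2 ranged from -0.22 to 0.015 and CHAF1A from -0.19 to 0.0089. The ratio of CCNE1 to CCNE2 was 0.039 without both tumours (-0.18 to 0.12), and that of PCNA to FEN1 ranged from -0.17 to 0.035. The causes were not tested. No paired analysis was possible because the groups share no tumour numbers. The groups held 4 and 5 tumours, and each member had at least 302 counts in every library. How far the spread between tumours and depth each limited the precision was not tested.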

Other observations

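The promoters of the replication genes and of the G2 and mitosis genes differed in their shares of the E2F and CHR words. The E2F words lay in 18 of 33 replication promoters (54.5%) and in 2 of 25 mitosis promoters (8%). The CHR word TTTGAA, known from promoters of mitotic genes, lay in 1 replication promoter, that of RRM1, and in 16 of 25 mitosis promoters (64%), against 9.37% of tested genes. CCAAT was frequent in both sets, in 19 of the 33 (57.6%) and in 19 of the 25 (76%), against 36.8% of tested genes. These are counts of letters on both strands, given with no test.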
